A study of Caenorhabditis elegans with 2 samples.

Results

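The methionine and S-adenosylmethionine cycle was followed through 10 genes of *C. elegans*, chosen by their symbols in the deposited table, with earlier results of these data known. They are 10 of the 18510 genes with reads. The study compared wild-type nematodes of strain N2 that were left untreated (Control, 0 mM) with wild-type nematodes given 2 mM AbaPep#07, an abalone peptide, from the last larval stage (L4), to find genes that respond to the peptide. Both groups were collected at Day 10 of adulthood and gave 1 library each of polyadenylated RNA from whole nematodes. The paper's RNA sequencing section names neither the food nor the culture of these nematodes. Its liquid-culture experiments used *E. coli* NA22 as food, and its oxidative stress, proteotoxicity and life span assays in liquid also contained FUDR (fluorodeoxyuridine).

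Methionine is activated to S-adenosylmethionine, the methyl donor for lipids, proteins and nucleic acids. Once the methyl group is given away, the remaining S-adenosylhomocysteine is split to homocysteine, which is either methylated back to methionine with carbon from folate and vitamin B12 as cofactor, or passed on to cysteine through transsulfuration. In *C. elegans* much of the methyl supply goes to phosphatidylcholine, which the nematode makes by methylating phosphoethanolamine as well as from choline.

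The reads assigned to genes summed to 19409907 in Control and 19241145 with AbaPep#07. Markers of the intestine, the germ line and body muscle were all detected, as whole nematodes should give. With 1 library per condition no difference below has a replicate check. The intervals given are exact 95% intervals of read ratios or of counts, which cover counting error only, and PCR copies were not told apart. Levels are given as FPKM, which scales reads by transcript length and library total. The FPKM ratio is reported as the size of a difference, and the ratio of reads, scaled by library totals, carries the interval.

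None of the 10 genes met the thresholds of the study's comparison, a false discovery rate (FDR) up to 0.05 together with a 2-fold difference in FPKM in either direction. Of all genes 2.1% met them as higher and 1.43% as lower with AbaPep#07. All differences in the cycle were small, between an FPKM ratio of 0.664 for *metr-1* and 1.12 for *sams-1*. The lower transcript levels of *metr-1* and *pmt-1* with AbaPep#07 lay farthest beyond counting error, which is smallest for genes with many reads. The estimate for *sams-3* was lower too (FPKM ratio 0.751), but rests on a division of reads shared with *sams-4*, and the reads of both together had a ratio of 0.845. The median log2 FPKM ratio over the 10 genes was -0.13, against -0.05 over 5964 genes whose reads in the 2 libraries sum to 1000 or more, a depth that each of the 10 genes exceeds.

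Counting error alone was exceeded by 8 of the 10 genes, 3 higher (*sams-1*, *mthf-1* and *ahcy-1*) and 5 lower (*metr-1*, *sams-3*, *sams-4*, *pmt-1* and *pmt-2*), and not by *mtrr-1* and *cbs-1*. This is common at such depth. Among genes with at least 1000 reads, 24.8% were higher and 32.4% were lower by the same rule, and among all genes 16.1% and 16.0%. By FDR without a fold threshold, 2 of the 10 genes were higher and 4 lower, where 13.1% and 12.4% of all genes were. The spread of ratios between these libraries was narrow. Of the genes with at least 1000 reads, 95.1% lay within 1.5-fold, and the tenth and ninetieth percentiles of their FPKM ratios were 0.839 and 1.252. Of the 10 genes, *metr-1*, *sams-3* and *pmt-1* lay outside these percentiles, all below, *sams-3* by its estimated share of the reads it has in common with *sams-4*.

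**Figure D1:**
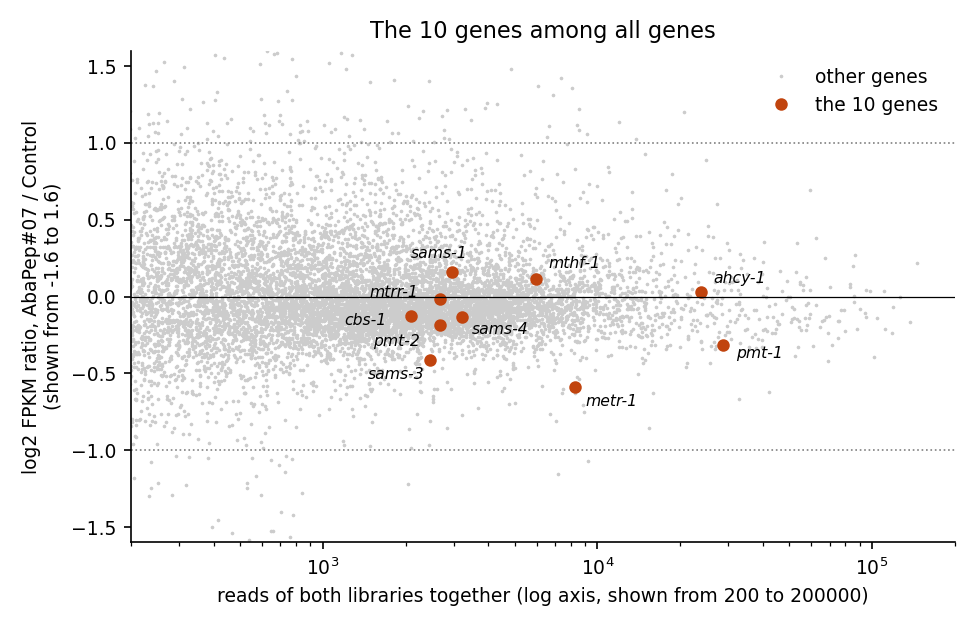
Each grey point is a gene, placed by its reads in both libraries together (log axis) and its log2 FPKM ratio of AbaPep#07 to Control, with dotted lines at 2-fold. The 10 genes of the cycle are in colour. They lie between -0.59 (*metr-1*) and 0.16 (*sams-1*), inside the dotted lines, and *metr-1* sits at the lower edge of genes of its depth.

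Levels spanned a wide range within each library. Highest in Control was *pmt-1* at 587 FPKM, followed by *ahcy-1* at 455 FPKM, above 98.6% and 98.2% of all genes in the table. The other 8 genes lay between 28.3 FPKM (*cbs-1*) and 72.3 FPKM (*mthf-1*). With AbaPep#07 *pmt-1* was at 471 FPKM and *ahcy-1* at 465 FPKM, and the counting intervals of these levels overlapped, so their order could no longer be told. The lowest levels belonged to *mtrr-1* and *cbs-1* in both libraries. Between these ends *metr-1* went from the fourth to the seventh place and *sams-3* from the sixth to the eighth. In Control the intervals of neighbours overlapped for *mthf-1* and *metr-1*, for *sams-4* and *sams-3*, and for *sams-3* and *pmt-2*. With AbaPep#07 the intervals overlapped for each neighbouring pair in the run *pmt-2*, *sams-1*, *metr-1* and *sams-3*.

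**Figure D2:**
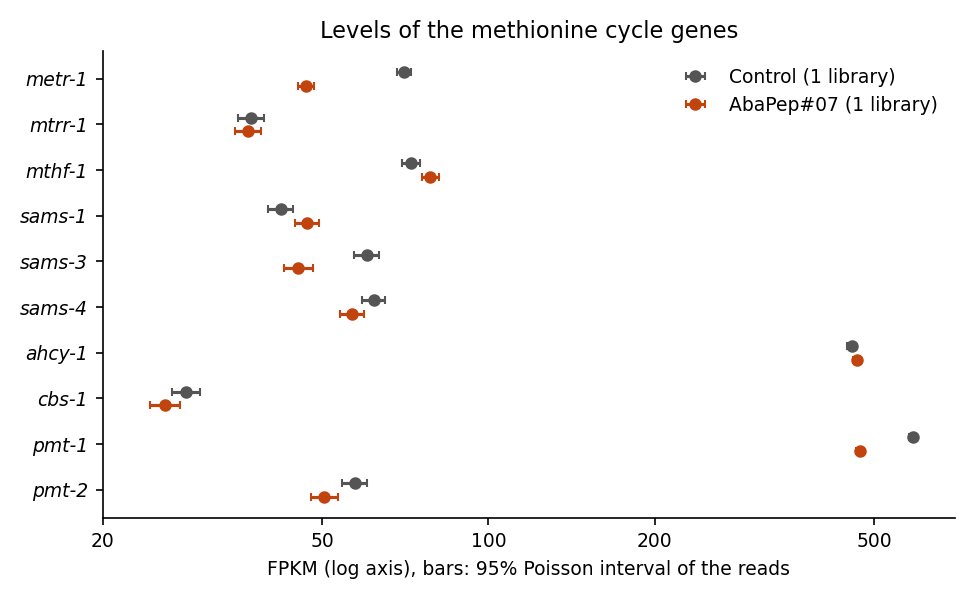
FPKM (log axis) of the 10 genes in the Control and AbaPep#07 libraries, with bars for the 95% Poisson interval of the reads. The 2 libraries are closest for *mtrr-1* and *ahcy-1* and farthest apart for *metr-1*, at 70.3 and 46.7 FPKM.

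Homocysteine is methylated by the product of *metr-1*, the vitamin B12-dependent methionine synthase. This gene (chromosome II, 10926561 to 10931078 on WBcel235, plus strand, 9 exons, 1 annotated transcript) had 4981 reads (70.3 FPKM, 58.1 TPM) in the Control library against 3289 (46.7 FPKM, 40.2 TPM) in the AbaPep#07 library. Its FPKM ratio was 0.664, and the ratio of reads was 0.666 with a counting interval of 0.637 to 0.696. A ratio as low as 1/1.5 was seen for 1.02% of the genes with at least 1000 reads, and 0.989% of them had a lower ratio than *metr-1*. Thus *metr-1* showed the largest difference among the 10 genes, short of the fold threshold by FPKM, by reads and by TPM.

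The enzyme's partners did not share this difference. The reductase gene *mtrr-1* (chromosome II, 9285975 to 9289132, plus strand), whose product returns oxidized cobalamin on the synthase to its active state, had 1350 and 1328 reads (37.1 and 36.6 FPKM). Its read ratio of 0.992 had an interval of 0.919 to 1.07, and its direction turned from lower by FPKM to higher by TPM (log2 ratios of -0.02 and 0.04). The gene *mthf-1* (chromosome II, 7773904 to 7777823, minus strand) encodes the reductase that makes the methylfolate used by the synthase. Control gave 2879 reads (72.3 FPKM) for it and AbaPep#07 gave 3107 (78.4 FPKM), a read ratio of 1.09 (1.03 to 1.15).

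Ratios between genes of the same library need no scaling, and 6 such ratios were compared between the libraries. The reads of *metr-1* were 3.69 times those of *mtrr-1* in Control and 2.48 times with AbaPep#07, lower by a factor of 0.671 (0.614 to 0.733). Against *mthf-1* the factor was 0.612 (0.572 to 0.655). The balance among the transcripts of the remethylation step therefore differed between the libraries beyond counting error, with less *metr-1* per *mtrr-1* and per *mthf-1* in the AbaPep#07 library.

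S-adenosylmethionine is made from methionine and ATP by the synthetases encoded by *sams-1*, *sams-3*, *sams-4* and *sams-5*. Of these, *sams-1* is known for its part in phosphatidylcholine synthesis and fat storage in the intestine and for the long life of nematodes in which it is silenced. It lies on chromosome X (11965962 to 11969893, plus strand, 3 transcripts) and had 1399 reads (42.1 FPKM, 34.8 TPM) in the Control library against 1557 (46.9 FPKM, 40.5 TPM) in the AbaPep#07 library. The FPKM ratio was 1.12 and the read ratio 1.12 (1.04 to 1.21), the highest among the 10 genes, and 18.9% of genes with at least 1000 reads had a higher FPKM ratio.

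The genes *sams-3* (chromosome IV, 5848657 to 5850843, plus strand) and *sams-4* (chromosome IV, 5844061 to 5846369, minus strand) point away from each other on either side of a gap of 2287 bases, and their longest coding lengths are both 1212 bases. Their estimated reads are not whole numbers, but their sum is in both libraries, as arises when RSEM divides reads that match both. For *sams-3* the table gives 1406.24 and 1056.32 reads (60.2 and 45.2 FPKM), a read ratio of 0.758 (0.699 to 0.821). For *sams-4* it gives 1674.76 and 1524.68 reads (62.0 and 56.5 FPKM), a read ratio of 0.918 (0.856 to 0.985). Because of the divided reads the sum is the firmer value. It was 3081 reads in Control and 2581 with AbaPep#07, a read ratio of 0.845 (0.802 to 0.891). By the estimated division, *sams-3* per *sams-4* was lower with AbaPep#07 by a factor of 0.825 (0.741 to 0.918), an interval that leaves out any error of the division itself.

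The direction of *sams-1* was thus opposite to that of the pair *sams-3* and *sams-4*. In reads, *sams-1* per *sams-3* and *sams-4* together was higher by a factor of 1.33 (1.21 to 1.45) in the AbaPep#07 library. When *sams-5* (chromosome IV, 6277433 to 6279522, 96 and 162 reads) is added, the TPM of all synthetase genes summed to 139.63 in Control and 134.8 with AbaPep#07. The share of this sum held by *sams-1* was 24.9% in Control and 30.02% with AbaPep#07, that of *sams-3* and *sams-4* together 72.4% and 65.1%, and that of *sams-5* 2.69% and 4.90%. As shares of reads, with exact binomial intervals, *sams-1* held 30.6% (29.2 to 31.9) and 36.2% (34.8 to 37.7). The lowly expressed *sams-5* had a read ratio of 1.70 (1.31 to 2.21). By FPKM the synthetase genes summed to 168.8 in Control and 156.36 with AbaPep#07, with the share of *sams-1* again 24.9% and 30.02%.

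**Figure D3:**
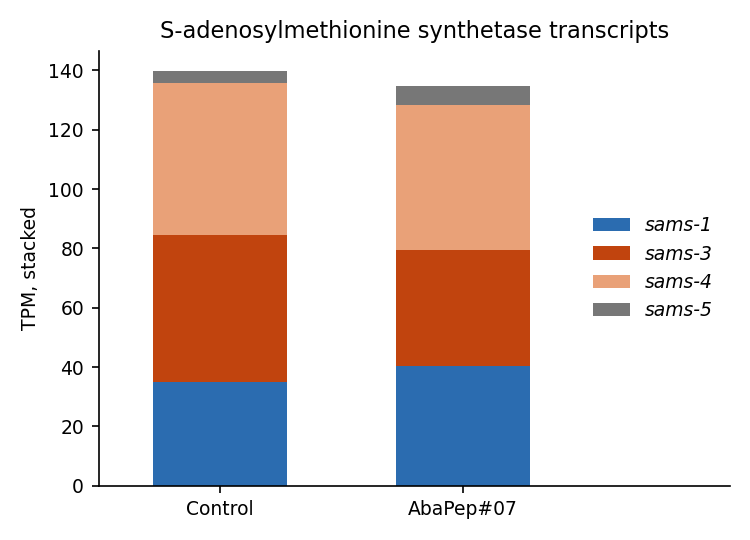
TPM of the 4 S-adenosylmethionine synthetase genes, stacked from 0, in 1 library per condition. The columns end at 139.63 and 134.8 TPM, with a larger part for *sams-1* and *sams-5* and a smaller part for *sams-3* in the AbaPep#07 column.

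Downstream of the methyl transfer, *ahcy-1* encodes the hydrolase that splits S-adenosylhomocysteine, which would otherwise inhibit methyltransferases. It lies on chromosome I (6836469 to 6838140, plus strand, 3 exons) and was covered by 11792 reads (455 FPKM) in Control against 12037 (465 FPKM) with AbaPep#07. Its read ratio of 1.03 (1.004 to 1.056) exceeded counting error only narrowly, and no longer with a 99% interval. Homocysteine leaves the cycle through cystathionine β-synthase, encoded by *cbs-1* (chromosome X, 10054275 to 10057528, plus strand). This gene had 1097 reads (28.3 FPKM) and 1000 reads (25.9 FPKM), with a read ratio of 0.920 whose interval (0.843 to 1.003) includes 1.

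The next enzyme of transsulfuration, cystathionine γ-lyase, differed more. Of its genes, *cth-2* (chromosome II, 7056184 to 7057960) was covered by 1379 reads (68.1 FPKM) in Control against 2415 (119 FPKM) with AbaPep#07. Its read ratio of 1.77 (1.65 to 1.89) stayed below the fold threshold. With 100 and 145 reads, *cth-1* had a read ratio of 1.46 (1.13 to 1.91). The reads of *cbs-1* per *cth-2* went from 0.796 to 0.414, a factor of 0.521 (0.466 to 0.581), the farthest from 1 of the 6 ratios compared.

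The last members use S-adenosylmethionine. The enzyme encoded by *pmt-1* adds the first methyl group to phosphoethanolamine, and that encoded by *pmt-2* adds the remaining ones to give phosphocholine. On chromosome II (5278090 to 5282523, minus strand, 8 transcripts), *pmt-1* was covered by 15946 reads (587 FPKM, 486 TPM) in Control against 12772 (471 FPKM, 406 TPM) with AbaPep#07, a read ratio of 0.808 (0.789 to 0.827). Of the genes with at least 1000 reads, 5.60% had a lower FPKM ratio. On chromosome V (4628580 to 4635263, plus strand), *pmt-2* had 1421.68 and 1250.94 reads (57.3 and 50.4 FPKM), a read ratio of 0.888 (0.822 to 0.958). The fractions of its reads are completed to whole numbers in both libraries by *soc-1*, a gene 3′ of it on the same strand, and the ratio of their summed reads was 0.889 (0.834 to 0.948).

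Both phosphoethanolamine methyltransferase genes were lower with AbaPep#07, and *pmt-1* by more. The reads of *pmt-1* were 11.2 times those of *pmt-2* in Control and 10.2 times with AbaPep#07, a factor of 0.910 (0.840 to 0.987). This interval leaves out any error in dividing reads between *pmt-2* and *soc-1*. The summed TPM of *pmt-1* and *pmt-2* went from 533.0 to 449.5. That of the remethylation genes went from 148.6 to 139.4 and that of *ahcy-1* and *cbs-1* from 400.0 to 423.4. Because *pmt-1* makes up the largest part, the TPM of all 10 genes summed to 1217.5 in Control and 1140.5 with AbaPep#07, a ratio of 0.937. By FPKM the 10 genes summed to 1471.77 and 1322.87, a ratio of 0.899. The FPKM sums were 644.3 and 521.39 for *pmt-1* and *pmt-2*, 179.68 and 161.71 for the remethylation genes, and 483.54 and 491.08 for *ahcy-1* and *cbs-1*.

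**Figure D4:**
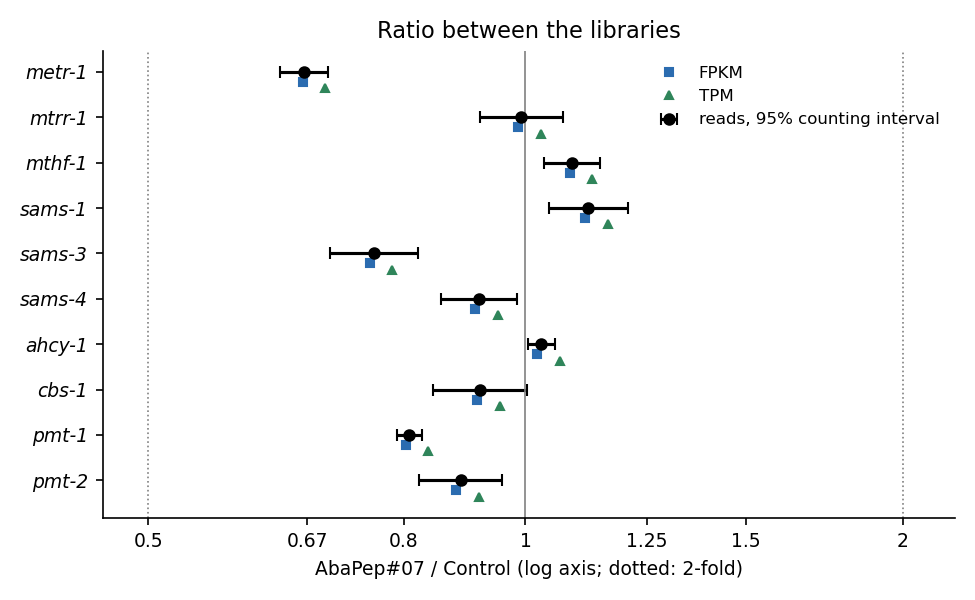
Ratio of AbaPep#07 to Control for each gene (log axis) from reads with the 95% counting interval, from FPKM and from TPM, with dotted lines at 2-fold. The TPM ratio lies to the right of the FPKM ratio for each gene, which turns the direction of *mtrr-1*, and the intervals of *metr-1*, *sams-3* and *pmt-1* lie farthest below 1.

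The length that the reads and FPKM imply for each gene was in the AbaPep#07 library between 100.279% and 100.838% of that in Control, so that ratios of reads and of FPKM differed by less than their counting error. On the TPM scale log2 ratios were higher than on the FPKM scale, by a median of 0.06, since the FPKM values of the AbaPep#07 library sum to less. By this scale the median log2 ratio of the 10 genes was -0.07.

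Tissue markers were compared between the libraries by the same rule of counting error. Among genes with at least 1000 reads, this rule gave 24.8% as higher and 32.4% as lower. The 6 oocyte and germ line markers were all lower with AbaPep#07 beyond counting error, with FPKM ratios from 0.750 (*glh-1*, a germ granule helicase) to 0.887 (*oma-1*, an oocyte protein) and a summed level of 1051.75 FPKM in Control and 856.47 FPKM with AbaPep#07. The 3 body muscle markers were lower too, at ratios of 0.832 to 0.923. Of the 6 intestinal markers, 3 were higher and 2 lower beyond counting error, and the gene of the intestinal GATA factor *elt-2* had the highest FPKM ratio, 1.595. Of 4 genes of moulting larvae 2 were higher and 1 was lower. The 4 sperm markers had between 2.57 and 48.55 reads in a library, and 1 of them, *msp-31*, met the thresholds as higher. Fewer cells of a type and less RNA per cell cannot be told apart in whole nematodes. The part of these tissues in the ratios of *metr-1*, *sams-3*, *sams-4*, *pmt-1* and *pmt-2* was not tested.

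Lists of genes around the cycle, chosen with earlier results of these data known, set its small differences in context. Over all genes, 16.1% were higher and 16.0% lower beyond counting error. Among genes with at least 1000 reads these shares were 24.8% and 32.4%. Of 10 genes of transsulfuration and other sulfur metabolism, 7 were higher and 0 lower beyond counting error, and none met the study's thresholds. Their median log2 FPKM ratio was 0.29, and besides *cth-2* the gene *cbs-2* was past 1.5-fold, on only 17 and 30 reads (interval of the read ratio 0.951 to 3.44). Of 7 genes that lead from choline to phosphatidylcholine, the last steps of which also use the phosphocholine made by way of *pmt-1* and *pmt-2*, 4 were higher and 1 lower beyond counting error. The median log2 FPKM ratio of the 6 genes of this list with at least 20 reads was 0.42. The highest was *pcyt-1*, whose product makes CDP-choline, with 791 reads in Control and 1223 with AbaPep#07, a read ratio of 1.56 (1.43 to 1.71). Of the last-step transferase genes, *cept-2*, with the most reads of the list, had a read ratio of 0.866 (0.811 to 0.923) and *cept-1* of 1.30 (1.095 to 1.54). Of the choline kinase genes, which phosphorylate choline, *ckb-2* (1.40, 1.101 to 1.78) and *ckb-4* (1.43, 1.11 to 1.85) were higher. The other kinase genes did not exceed counting error, with 89 and 107 reads for *ckb-1* and 9 and 3 reads for *ckb-3*.

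Of 10 genes that carry folate-bound carbon or bring folate in, 6 were higher and 0 lower beyond counting error, with a median log2 FPKM ratio of 0.08. The shares over all genes were 16.1% higher and 16.0% lower, and over genes with at least 1000 reads 24.8% and 32.4%. All genes of this list but *folt-1* had that depth. The serine hydroxymethyltransferase gene *mel-32*, which loads carbon onto folate, had a read ratio of 1.06 (1.01 to 1.103). The 2 folate transporter genes had the highest ratios, with *folt-1* at 54 and 88 reads (ratio 1.64, 1.16 to 2.35) and *folt-2* at 41 and 3834 reads, and *folt-2* was the only gene of the list to meet the study's thresholds. Of 9 genes of cobalamin handling and of the cobalamin-dependent route of propionate breakdown, 3 were higher and 2 lower beyond counting error. The median log2 FPKM ratio was -0.04, and 1 gene met the thresholds. It was *pmp-5*, an ABC transporter gene, with 273 and 779 reads and a read ratio of 2.88 (2.50 to 3.32). The gene of the other vitamin B12-dependent enzyme, *mmcm-1* (methylmalonyl-CoA mutase), had 6285 and 5522 reads, a ratio of 0.886 (0.855 to 0.919), which does not overlap the interval of *metr-1*.

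Of 6 regulator genes 2 were higher and 2 lower beyond counting error, where 16.1% and 16.0% of all genes were. The nuclear hormone receptor gene *nhr-68* met the thresholds with 145 and 776 reads, and *nhr-10* had a read ratio of 1.04 (0.926 to 1.16). The receptor gene *nhr-114*, known for protecting the germ line on diets low in vitamin B12, had 95 and 127 reads. Its ratio was 1.35 by reads (1.03 to 1.78) but 1.05 by FPKM, so its value rests on how transcripts of different length were weighed. The gene of SBP-1, a lipid regulator that responds to low phosphatidylcholine, had a read ratio of 0.909 (0.847 to 0.975). The gene *mett-10* encodes an RNA methyltransferase that marks transcripts of the synthetase genes *sams-3*, *sams-4* and *sams-5* and limits their splicing. It had 409 and 295 reads, a ratio of 0.728 (0.624 to 0.847). Of 12 genes of methyltransferases acting mostly on proteins, 0 were higher and 4 lower beyond counting error. Of genes with at least 1000 reads, 24.8% and 32.4% were. None of the 12 was past 1.5-fold. The lowest was the arginine methyltransferase gene *prmt-1*, at 0.848 (0.821 to 0.875).

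**Figure D5:**
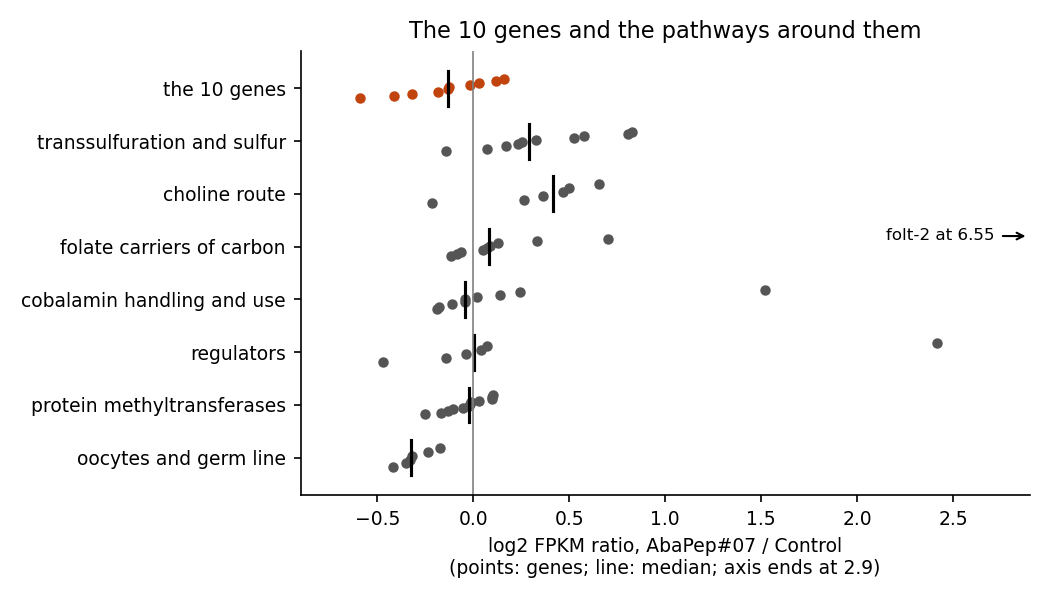
Log2 FPKM ratio of AbaPep#07 to Control for the 10 genes of the cycle and for genes with at least 20 reads in 6 surrounding lists and in the oocyte and germ line markers, with the median as a line and *folt-2* beyond the axis at 6.55. The median lies at -0.13 for the 10 genes and 0.29 for the transsulfuration and sulfur list. It lies at 0.42 for the choline route and -0.32 for the oocyte and germ line markers.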

How the data were processed

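Polyadenylated RNA, purified from total RNA of whole nematodes, was sequenced as 1 library per condition. After quality control with SOAPnuke, the authors mapped reads to the coding genes by Bowtie2 (2.2.5) and quantified them by RSEM (1.2.12), naming WBcel235 as the build. Deposited for each gene are estimated counts without normalization, in which RSEM divides reads among similar genes, and the authors' FPKM and TPM. The deposited log2 ratio, p-value and FDR score are the authors' own comparison and were not used. All columns of values per sample were mapped to a condition.

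The study's Audic-Claverie test was recomputed on reads rounded down, with Benjamini-Hochberg adjustment over 18510 genes. It compares the 2 libraries, not the conditions. Since edgeR's quasi-likelihood test needs replicates, its exact test with an assumed coefficient of variation served as an alternative (edgeR 4.0.16, DESeq2 1.42.0, R 4.3.3). Intervals of read ratios are exact binomial ones, on reads rounded to whole numbers, and those of ratios between genes are conditional odds ratios (scipy 1.17.1). The Audic-Claverie test and the intervals of read ratios were run on simulated Poisson counts without variation between libraries, which checks only their computation. Depth sets a counting error of 2.33% to 8.68% on either side of a member's ratio. With 1 library per condition, variation between nematode samples was not measured and is not part of this error.

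Members and lists were chosen with earlier results of these data known. Named in the text are all 10 members, up to 4 genes of a surrounding list that are past 1.5-fold with at least 20 reads, and *sams-5*, *cth-2*, *mel-32*, *nhr-114*, *nhr-68*, *nhr-10*, *sbp-1* and *mett-10*. *soc-1*, *cth-1*, *cept-1*, *cept-2*, *ckb-1* to *ckb-4*, *mmcm-1*, *prmt-1*, *glh-1*, *oma-1*, *elt-2* and *msp-31*, and the genes named only under other observations, were chosen after their values were seen. Positions are those of Ensembl release 115 on WBcel235. Sequences were not analysed here.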

Additional observations from a re-analysis of the deposited data

How the results depend on the processing

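No member met the thresholds when the ratio was taken from reads, TPM, TMM or DESeq2 scaling, with 1 FPKM added, with at least 20 reads required, or by edgeR's exact test with an assumed coefficient of 0.1, 0.2 or 0.4. Without a fold threshold 6 members passed by FDR, and 0 when edgeR assumed a coefficient of 0.1, where *metr-1* had the lowest adjusted p at 0.126. The median log2 ratio of the members lay between -0.13 and -0.07 in all units and scalings. The counts of 3 members higher and 5 lower beyond counting error did not change with TMM or DESeq2 scaling or with reads rounded down, and became 2 and 4 with a 99% interval, without *ahcy-1* and *sams-4*.

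Of 50 recomputed ratios of single members, 38 kept their direction and their side of counting error. The direction of *mtrr-1* turned with TPM (0.041) and TMM (0.0016). With the interval placed around each ratio, *ahcy-1* passed counting error under 4 alternatives but not by FPKM, *sams-4* no longer did by TPM, and *cbs-1* did by FPKM but under none of the 5 alternatives. Shares of the synthetase genes moved when taken from reads in place of TPM, with *sams-1* at 30.6% and 36.2% and *sams-3* at 30.7% and 24.6%. No paired analysis was possible because each condition has 1 library.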

Other observations

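The annotation in the deposited table places 45 genes under cysteine and methionine metabolism, 6 of them members. Of the other 39, 17 were higher and 7 lower with AbaPep#07 beyond counting error. Of all genes 16.1% and 16.0% were, and of genes with at least 1000 reads 24.8% and 32.4%. The median log2 FPKM ratio was 0.20 over the 35 of these 39 with at least 20 reads, and 1 of the 39 met the study's thresholds. It was *smd-1*, the gene of S-adenosylmethionine decarboxylase, which commits S-adenosylmethionine to polyamines. Control gave 1165 reads (34.7 FPKM) for it and AbaPep#07 gave 2785 (83.2 FPKM), an FPKM ratio of 2.40 with a counting interval of the read ratio from 2.25 to 2.58. The spermidine synthase gene *spds-1* had 260 and 351 reads, an FPKM ratio of 1.34 (interval of the read ratio 1.16 to 1.605).

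Polyamine synthesis leaves methylthioadenosine, which the salvage pathway returns to methionine. Here the directions were mixed. *B0228.7*, annotated as the methylthioadenosine phosphorylase, had 1161 and 1019 reads (FPKM ratio 0.878), *C01G10.9*, the methylthioribose-phosphate isomerase, had 179 and 201 reads (1.12), *F58H1.3*, the enolase-phosphatase, had 679 and 598 reads (0.871), and the acireductone dioxygenase genes *T01D1.4* and *F42F12.4* had 276 and 445 reads (1.59) and 240 and 281 reads (1.15). Of these 5 genes, *B0228.7* and *F58H1.3* were lower and *T01D1.4* was higher beyond counting error.

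Aminotransferase genes of the same annotation differed in both directions. The tyrosine aminotransferase gene *tatn-1* had 1065 and 1864 reads (FPKM ratio 1.75), and the branched-chain aminotransferase gene *bcat-1* had 2666 and 4154 reads (1.56). Of the aspartate aminotransferase genes, *got-1.2* was higher (1828 and 2097 reads, 1.15), and *got-2.1* (975 and 848 reads, 0.869) and *got-2.2* (6318 and 5526 reads, 0.875) were lower, all beyond counting error. These genes were picked after their values were seen, from 1 library per condition, and are given as values only.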
